A study of Homo sapiens with 6 samples.

Results

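The genes described here encode the centromere, the kinetochore and the spindle assembly checkpoint. The set holds 46 of the 67130 genes in the table and was fixed by name: 19 genes of the inner centromere and of its constitutive network (CCAN), 15 of the outer kinetochore, and 12 of the checkpoint with its recruiting complex and the shugoshins. Each symbol matched 1 line on a main chromosome. The samples came from hTERT-RPE1, a human retinal pigment epithelial line immortalized with telomerase, into which a lentivirus had placed a hairpin that targets OFD1 and is inducible by doxycycline (Tet-On). OFD1 encodes a protein of centriolar satellites and of the centriole. The 3 control samples grew without doxycycline and are given the genotype WT in the labels, although all 6 samples carry the inducible hairpin. The 3 OFD1-depleted samples received 200 ng/mL doxycycline, which switches the hairpin on, and both groups were collected at 72 h. No sample analysed here had doxycycline without the hairpin, so an effect of the drug and of the hairpin cannot be told apart. Whether the line is 1 clone is not given in the sources used here. The study calls the samples biological replicates and states that its assays were repeated independently, but how the cultures of these samples were kept apart is not given in the sources used here, so p-values measure the spread between these samples.

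The centromere is the chromosomal site at which the kinetochore forms. It is marked by nucleosomes that hold the histone H3 variant CENP-A, which a chaperone and a licensing complex renew after mitosis. On this base sits the CCAN, which stays on the chromosome throughout the cell cycle. In mitosis the outer kinetochore assembles on it and holds the ends of microtubules through the NDC80 complex. Kinetochores without a stable microtubule recruit the checkpoint proteins, which delay anaphase until every chromosome is attached. Many of these genes are transcribed mainly in S phase, G2 and mitosis, and their mRNA is known to be low in resting cells. Their promoters often carry a cell cycle homology region (CHR), at which the DREAM complex and B-MYB with FOXM1 act, and CCAAT boxes bound by NF-Y.

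Values are FPKM, the fragments assigned to a gene per kilobase of transcript, scaled to the mapped fragments of the sample, so that levels of different genes can be set side by side per length. OFD1 itself read 3.34, 3.62 and 3.44 FPKM in control samples 1 to 3 and 0.795, 0.763 and 1.43 FPKM in OFD1-depleted samples 1 to 3. It was lower in every depleted sample (log2 fold change -1.75, standard error 0.255, limma adjusted p = 0.00085). The epithelial keratins KRT8 and KRT18 stood at 139.6 and 111.4 FPKM or more in every sample. Of the 8 pigment epithelium markers, MITF (5.06 to 7.75 FPKM) and OTX2 (1.56 to 2.10 FPKM) were expressed, while RPE65, RLBP1, TYR, PMEL and TTR stayed below 1 FPKM and BEST1 exceeded 1 FPKM only in OFD1-depleted sample 2, at 4.33. The photoreceptor genes CRX and RCVRN were at 0 and NRL did not pass 0.286 FPKM, and the leukocyte marker PTPRC and the endothelial marker PECAM1 did not pass 0.187 FPKM. FPKM summed over all genes lay between 408302 and 414547 in control and between 433262 and 493510 in OFD1-depleted samples. The table holds no read counts. The best-fitting step in the low values of genes with 1 exon gave a depth of 37800000 to 44500000 fragments a sample. The step was searched only within a range set beforehand. Only 22.4% to 24.9% of those low values lay within 0.05 of a whole multiple, so this depth is approximate and entered no test.

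The promoters shown are those of the gene with the smallest and the gene with the largest limma p-value in each group, among members with a RefSeq start site within 100 bases of the GENCODE canonical start. Each window runs 5′ to 3′ along the gene, from 170 bases before the start site to 30 bases after it. Capitals mark the letters TTTGAA or TTCGAA (CHR), CCAAT, and TTCCCGC or TTGGCGC (E2F), on either strand. TTCGAA reads the same on both strands, and GCGCCAA, the reverse of TTGGCGC, shares 4 letters with CCAAT, so these motifs can overlap. HJURP lies at chr2:233854506-233854705 on the minus strand, CENPX at chr17:82022849-82023048 on the minus strand, NDC80 at chr18:2571387-2571586 on the plus strand, PMF1 at chr1:156212837-156213036 on the plus strand, BUB1 at chr2:110678034-110678233 on the minus strand and MAD1L1 at chr7:2232916-2233115 on the minus strand (RefSeq, GRCh38.p14).
HJURP: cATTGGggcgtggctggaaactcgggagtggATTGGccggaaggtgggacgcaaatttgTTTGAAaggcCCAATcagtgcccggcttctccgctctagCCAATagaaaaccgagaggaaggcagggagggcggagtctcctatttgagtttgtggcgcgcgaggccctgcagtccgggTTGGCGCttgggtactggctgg
CENPX: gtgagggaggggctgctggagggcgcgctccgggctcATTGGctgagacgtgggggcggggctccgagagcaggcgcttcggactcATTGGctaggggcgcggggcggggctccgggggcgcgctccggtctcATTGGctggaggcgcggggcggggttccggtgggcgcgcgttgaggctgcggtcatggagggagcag
NDC80: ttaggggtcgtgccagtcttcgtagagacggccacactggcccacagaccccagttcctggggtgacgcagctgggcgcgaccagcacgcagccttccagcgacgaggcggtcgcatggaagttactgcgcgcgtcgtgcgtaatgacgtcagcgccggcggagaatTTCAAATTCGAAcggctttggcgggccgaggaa
PMF1: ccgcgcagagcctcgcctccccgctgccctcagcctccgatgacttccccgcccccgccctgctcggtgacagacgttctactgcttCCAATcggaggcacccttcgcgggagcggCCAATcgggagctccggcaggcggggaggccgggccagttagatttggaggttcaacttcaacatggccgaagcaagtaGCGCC
BUB1: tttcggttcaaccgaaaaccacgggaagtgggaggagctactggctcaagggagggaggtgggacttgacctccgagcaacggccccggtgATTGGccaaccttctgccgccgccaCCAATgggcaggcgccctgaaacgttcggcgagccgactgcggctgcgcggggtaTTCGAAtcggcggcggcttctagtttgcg
MAD1L1: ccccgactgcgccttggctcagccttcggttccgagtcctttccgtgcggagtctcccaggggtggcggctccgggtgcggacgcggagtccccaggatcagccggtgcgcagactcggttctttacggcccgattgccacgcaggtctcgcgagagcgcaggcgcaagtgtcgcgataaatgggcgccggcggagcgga
HJURP, NDC80 and BUB1 fell, and each window holds a CHR. In BUB1 it begins at the base next after the start site and lies below CCAAT boxes at -79 and -54. In NDC80 a TTTGAA on the minus strand at -3 runs directly into a TTCGAA at 4, with no CCAAT. In HJURP the CHR lies farther upstream, at -111, among 4 CCAAT boxes, and an E2F motif begins at 9. CENPX, PMF1 and MAD1L1 did not pass the test, and none of their windows holds a CHR. CENPX repeats the inverted box ATTGG inside a GC-rich stretch, and MAD1L1 has no match to any of these letters. The PMF1 window ends inside an E2F motif, whose first 5 letters are in capitals. The genes next in p-value by the same rule, not shown, were CENPO, NUF2 and BUB1B, and all fell. NUF2 and BUB1B hold a CHR in this window. CENPO holds no match to any of these letters there, and its CHR begins beyond the window, at 37.

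In OFD1-depleted cells, 35 of the 46 genes fell and none rose. All 46 passed the filter of a mean of 1 FPKM, and all 46 had a log2 fold change under 0. Over all 12025 genes tested, 11.9% fell and 5.07% rose by the same rule (limma, adjusted p under 0.05). The median log2 fold change of the 46 was -1.065, beside -0.032 for all genes tested, so that the median member kept 47.6% of its control mean. Set against the control mean 1 depleted sample at a time, the median member change was -1.046, -1.115 and -1.012. The 3 depleted values lay below the 3 control values in 40 members, where 22.3% of all genes tested did so. In all, 24 members fell by at least 1 on the log2 scale, which 4.39% of all genes tested did. Summed over the 46 genes, expression went from 740.9 to 851.2 FPKM in control to 443.6 to 479.9 FPKM in depleted samples. The exact two-sided permutation test on 3 against 3 samples cannot give a p below 0.1, and limma is therefore the test used throughout. In bulk RNA, fewer cells in the cycle and less of these mRNAs per cell cannot be told apart. The cycling markers MKI67, TOP2A, PCNA, MCM2, CCNB1 and CDK1 fell in the same samples, all 6 of 6, with a median log2 fold change of -1.311. Their summed expression was 310.9 to 358.2 FPKM in control and 144.7 to 156.2 FPKM in depleted samples, and their part in the result was not tested.

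**Figure D1:**
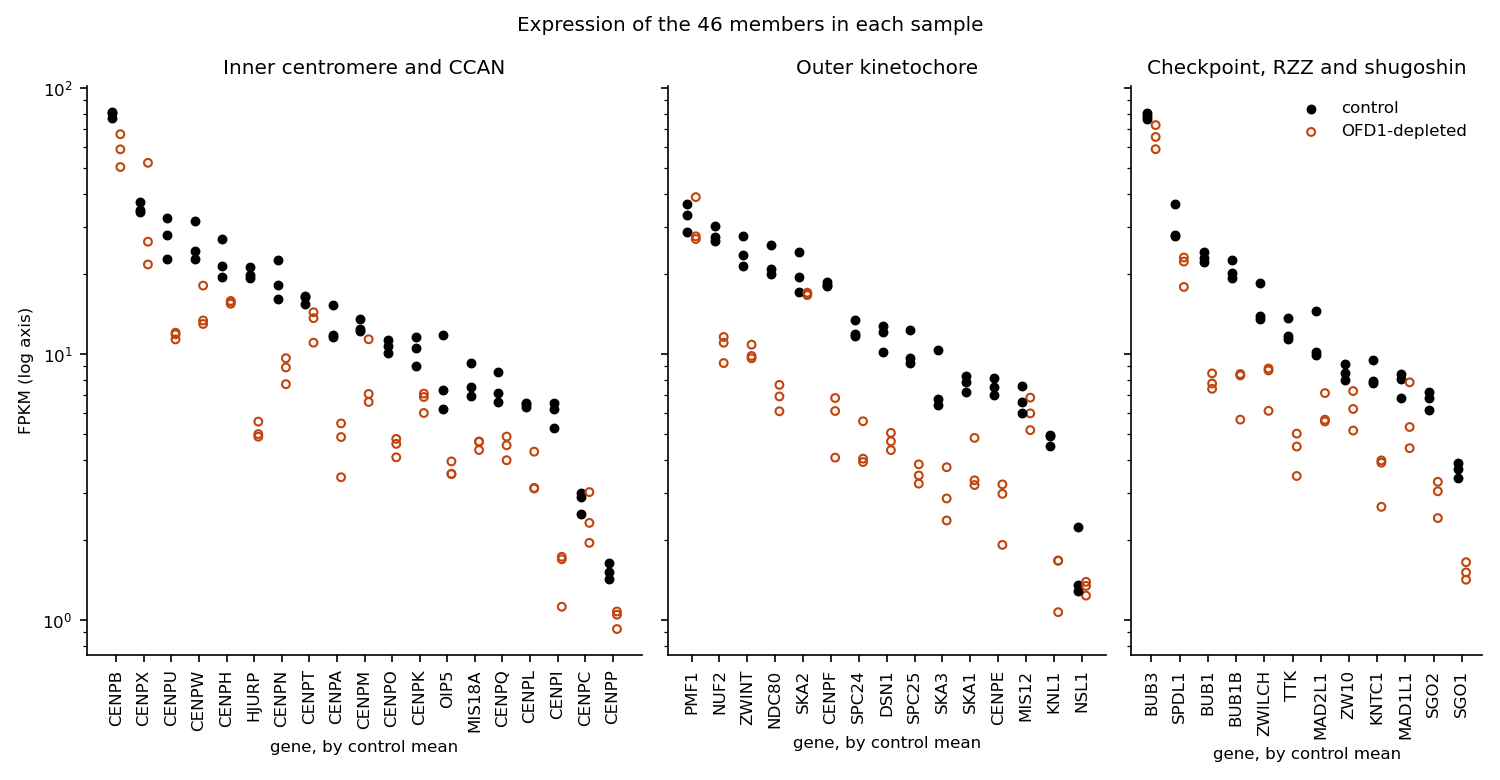
FPKM of each of the 46 genes (log axis) in the 3 control samples (filled black) and the 3 OFD1-depleted samples (open), with genes ordered by control mean within the inner, outer and checkpoint groups. In 40 genes every open point lies below every filled one, and CENPX, CENPC, MIS12, NSL1, PMF1 and MAD1L1 are the 6 that overlap.

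Among the 19 inner genes, 15 fell and 4 did not pass, with a median of -0.764. The largest falls were in HJURP, CENPI and CENPA. HJURP (ENSG00000123485, chr2:233833416-233854566 on GRCh38, minus strand), the chaperone that brings CENP-A to the centromere, read 19.8, 21.2 and 19.3 FPKM in control samples 1 to 3 and 5.57, 4.89 and 5.0 FPKM in depleted samples 1 to 3. The groups lay far apart and each was tight, and HJURP kept 25.6% of its control mean (log2 fold change -1.94, standard error 0.129, limma adjusted p = 1.03e-05). CENPA (ENSG00000115163, chr2:26764289-26801067, plus strand), the histone variant itself, read 11.6, 15.3 and 11.8 FPKM in control and 4.87, 5.48 and 3.44 FPKM in depleted samples. No value of the groups overlapped, with control sample 2 the highest and depleted sample 3 the lowest (log2 fold change -1.48, standard error 0.190, limma adjusted p = 0.000364). OIP5 (-1.13) and MIS18A (-0.76), subunits of the MIS18 complex that licenses the loading of CENP-A, fell too, so that all 4 genes of deposition were lower, with a median of -1.304. CENPB, which binds a motif in the alphoid repeats, fell least of the inner genes that passed, by 0.44 on the log2 scale.

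The CCAN accounted for 14 of the inner genes, of which 10 fell and 4 did not pass (median -0.681). CENPI, of the CENP-HIKM module, read 6.22, 6.54 and 5.28 FPKM in control and 1.73, 1.12 and 1.69 FPKM in depleted samples. It kept 25.2% of its control mean, the smallest share of the 46, and the groups did not overlap (log2 fold change -1.94, standard error 0.205, limma adjusted p = 0.000107). The other members of that module moved far less: CENPK by -0.63, CENPM by -0.64 and CENPH by -0.52, all past the threshold. CENPO, of the CENP-OPQUR module that helps to bring PLK1 to the kinetochore, read 10.7, 10.1 and 11.3 FPKM in control and 4.8, 4.6 and 4.09 FPKM in depleted samples. CENPU, which belongs to the same module, read 28.1, 32.4 and 22.8 FPKM in control and 11.3, 12 and 11.9 FPKM in depleted samples. The depleted values of CENPU lay close together while its controls were spread, and neither gene overlapped between groups. The log2 fold changes were -1.23 for CENPO (standard error 0.138, limma adjusted p = 0.000156) and -1.22 for CENPU (standard error 0.147, limma adjusted p = 0.000254). CENPN (-1.10) and CENPL (-0.87), which contact the CENP-A nucleosome together, CENPW (-0.82), a histone-fold partner of CENP-T, and CENPQ (-0.72) fell as well.

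The 4 inner genes that did not pass include CENPC and CENPT, the proteins from which the links to the outer kinetochore start. CENPC read 3.01, 2.50 and 2.91 FPKM in control and 2.32, 1.95 and 3.03 FPKM in depleted samples. Its highest value was in a depleted sample, and the groups overlapped (log2 fold change -0.22, 95% confidence interval -0.67 to 0.24, limma adjusted p = 0.523). CENPT read 16.4, 16.5 and 15.4 FPKM in control and 14.4, 13.6 and 11.0 FPKM in depleted samples. All its depleted values were lower, and the change missed the threshold after adjustment (log2 fold change -0.31, 95% confidence interval -0.62 to -0.01, limma adjusted p = 0.151). CENPP, the least expressed of the 46, read 1.43, 1.52 and 1.63 FPKM in control and 0.925, 1.05 and 1.08 FPKM in depleted samples, again without overlap (log2 fold change -0.54, 95% confidence interval -1.08 to -0.01, limma adjusted p = 0.159). CENPX, a small histone-fold protein shared with the Fanconi pathway, read 34.1, 34.7 and 37.4 FPKM in control and 26.4, 52.4 and 21.7 FPKM in depleted samples. Depleted sample 2 held the highest value of all 6 and the other depleted samples the lowest (log2 fold change -0.19, 95% confidence interval -0.75 to 0.38, limma adjusted p = 0.673). Without depleted sample 2, CENPX was at -0.56 with a limma adjusted p = 0.00998, and without depleted sample 3 it was at 0.07.

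Of the 15 outer genes, 11 fell and 4 did not pass, with a median of -1.353. Every outer gene that fell did so by at least 1 on the log2 scale, between -1.70 and -1.03, and the other 4 lay between -0.25 and -0.09. All 4 subunits of the NDC80 complex, which grips the microtubule, fell to between 31.1% and 37.8% of control. NDC80 (ENSG00000080986, chr18:2571557-2616635, plus strand) read 20.9, 25.7 and 20.0 FPKM in control and 6.93, 6.09 and 7.66 FPKM in depleted samples. NUF2, its coiled-coil partner, read 27.4, 30.2 and 26.6 FPKM in control and 11.0, 9.25 and 11.6 FPKM in depleted samples. SPC25, at the end of the complex that faces the inner kinetochore, read 9.67, 12.4 and 9.24 FPKM in control and 3.85, 3.26 and 3.49 FPKM in depleted samples. In all 3 genes control sample 2 was the highest, depleted sample 2 the lowest, and the groups did not overlap. The log2 fold change was -1.67 for NDC80 (standard error 0.148, limma adjusted p = 3.81e-05), -1.40 for NUF2 (standard error 0.135, limma adjusted p = 6.18e-05) and -1.53 for SPC25 (standard error 0.158, limma adjusted p = 9.69e-05). SPC24, the partner of SPC25, stood at -1.44.

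CENPF, a very long coiled-coil protein of the outermost layer, read 18.7, 18.0 and 18.1 FPKM in control and 6.83, 4.08 and 6.11 FPKM in depleted samples. Its controls were nearly level, depleted sample 2 was lowest, and the groups did not overlap (log2 fold change -1.70, standard error 0.181, limma adjusted p = 0.000111). CENPE, the kinesin that carries chromosomes towards the spindle equator, fell by 1.47 on the log2 scale. ZWINT, which binds KNL1, read 21.4, 27.7 and 23.6 FPKM in control and 9.64, 10.8 and 9.83 FPKM in depleted samples. The depleted values of ZWINT were close together and far below the lowest control (log2 fold change -1.25, standard error 0.138, limma adjusted p = 0.000149). KNL1, the scaffold on which BUB proteins gather, was at -1.66. Of the SKA complex, which strengthens the grip on microtubules, SKA3 (-1.35) and SKA1 (-1.03) fell and SKA2 did not pass.

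The MIS12 complex, the bridge between the CCAN and the NDC80 complex, was split. DSN1 kept 40.2% of its control mean (log2 fold change -1.29, standard error 0.145, limma adjusted p = 0.000164), whereas its 3 partners did not pass. MIS12 read 6.58, 7.58 and 6.01 FPKM in control and 5.98, 5.17 and 6.86 FPKM in depleted samples. NSL1 read 2.23, 1.35 and 1.29 FPKM in control and 1.24, 1.39 and 1.34 FPKM in depleted samples. PMF1 read 28.6, 36.7 and 33.4 FPKM in control and 27.7, 38.9 and 27.1 FPKM in depleted samples. In each of the 3 the groups overlapped, and the high NSL1 value of control sample 1 stood alone. The log2 fold changes were -0.16 for MIS12 (95% confidence interval -0.51 to 0.19), -0.23 for NSL1 (-0.82 to 0.35) and -0.09 for PMF1 (-0.45 to 0.27), with limma adjusted p = 0.531, 0.599 and 0.759. NSL1 was at 0.004 without control sample 1 and PMF1 at 0.004 without depleted sample 3. The interval of each of the 3 lies wholly above that of DSN1 (-1.61 to -0.97), a difference that was not itself tested. SKA2 read 19.5, 24.2 and 17.2 FPKM in control and 16.9, 16.7 and 17.0 FPKM in depleted samples. Its depleted values were all lower, by little beside the lowest control (log2 fold change -0.25, 95% confidence interval -0.57 to 0.07, limma adjusted p = 0.270).

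Of the 12 checkpoint genes, 9 fell and 3 did not pass, with a median of -1.069. The kinases and pseudokinases changed most. BUB1 (ENSG00000169679, chr2:110637528-110678063, minus strand), a kinase that brings other checkpoint proteins and shugoshin to the centromere, read 22.2, 24.2 and 22.9 FPKM in control and 8.46, 7.40 and 7.75 FPKM in depleted samples. TTK, the kinase also called MPS1 that starts checkpoint signalling, read 11.4, 13.7 and 11.7 FPKM in control and 4.49, 3.48 and 5.02 FPKM in depleted samples. BUB1B, which encodes the inhibitor BUBR1, read 19.3, 22.6 and 20.1 FPKM in control and 8.41, 5.67 and 8.31 FPKM in depleted samples. Control sample 2 was the highest and depleted sample 2 the lowest in all 3, and no values overlapped. The log2 fold changes were -1.54 for BUB1 (standard error 0.126, limma adjusted p = 2.41e-05), -1.49 for TTK (standard error 0.165, limma adjusted p = 0.000147) and -1.48 for BUB1B (standard error 0.168, limma adjusted p = 0.000175). MAD2L1, which encodes the MAD2 that binds CDC20, fell by 0.89 on the log2 scale.

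KNTC1, which encodes the ROD subunit of the RZZ complex that brings MAD proteins and dynein to the kinetochore, read 7.89, 9.52 and 7.80 FPKM in control and 3.90, 2.66 and 3.98 FPKM in depleted samples. The groups did not overlap, and depleted sample 2 was lowest (log2 fold change -1.25, standard error 0.183, limma adjusted p = 0.000873). ZWILCH, of the same complex, was at -0.96, and SPDL1, the adaptor that links RZZ to dynein, at -0.54. SGO2, a shugoshin that protects centromeric cohesin, read 6.15, 7.20 and 6.81 FPKM in control and 3.05, 2.42 and 3.31 FPKM in depleted samples. No value overlapped (log2 fold change -1.18, standard error 0.167, limma adjusted p = 0.00069), and SGO1 stood beside it at -1.21.

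The checkpoint genes that did not pass were ZW10, MAD1L1 and BUB3. ZW10, the third RZZ subunit, which also acts in membrane traffic, read 8.46, 9.19 and 7.99 FPKM in control and 7.26, 5.15 and 6.21 FPKM in depleted samples. All its depleted values were lower (log2 fold change -0.47, 95% confidence interval -0.81 to -0.12, limma adjusted p = 0.0656), and without depleted sample 1 the limma adjusted p was 0.0398. MAD1L1, the platform of MAD2, read 8.45, 8.08 and 6.86 FPKM in control and 5.32, 7.83 and 4.43 FPKM in depleted samples. Depleted sample 2 alone lay inside the control range (log2 fold change -0.44, 95% confidence interval -0.88 to -0.00, limma adjusted p = 0.162). Without that sample MAD1L1 was at -0.67 with a limma adjusted p = 0.0112. BUB3, which carries BUB1 and BUBR1 to KNL1, read 76.3, 80.4 and 78.5 FPKM in control and 65.5, 58.9 and 72.6 FPKM in depleted samples. The depleted values lay below the controls by less than in most members (log2 fold change -0.26, 95% confidence interval -0.54 to 0.02, limma adjusted p = 0.190).

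**Figure D2:**
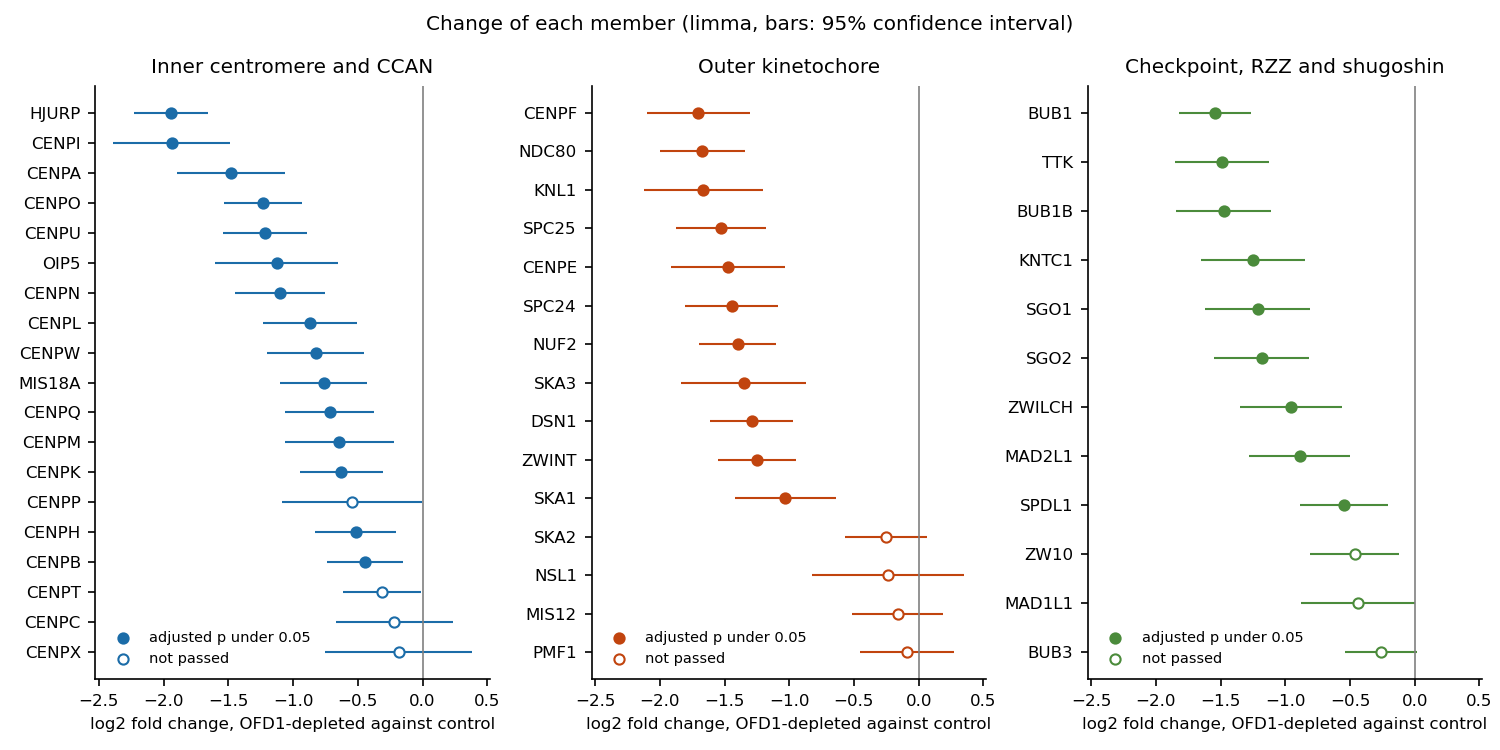
Log2 fold change of each gene, OFD1-depleted against control, on log2(FPKM + 0.1), with bars for the 95% confidence interval from limma and filled points for an adjusted p under 0.05. The outer genes part into 11 between -1.70 and -1.03 and 4 between -0.25 and -0.09, while the inner genes spread from -1.94 to -0.19 without such a break.

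Placed side by side, the medians were -0.764 for inner, -1.353 for outer and -1.069 for checkpoint genes, and the single depleted samples gave -0.732, -0.771 and -0.835 for inner, -1.339, -1.290 and -1.268 for outer and -0.939, -1.201 and -1.006 for checkpoint genes. In each of the 3 depleted samples the outer median was the lowest and the inner median the highest. The genes are not replicates, and no test of one group against another was made. By subcomplex, the medians ran from -1.588 for CENPE with CENPF, -1.484 for the NDC80 complex and -1.456 for KNL1 with ZWINT to -0.313 for the histone-fold module of CENPT, CENPW and CENPX and -0.199 for the MIS12 complex. Within some complexes the log2 fold changes were spread. CENPI and CENPH of CENP-HIKM stood at -1.94 and -0.52, and DSN1 and PMF1 of the MIS12 complex at -1.29 and -0.09. KNTC1 and ZW10 of RZZ stood at -1.25 and -0.47. In others they lay closer together, from -1.671 to -1.399 in the NDC80 complex and from -1.098 to -0.872 in CENPL with CENPN.

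**Figure D3:**
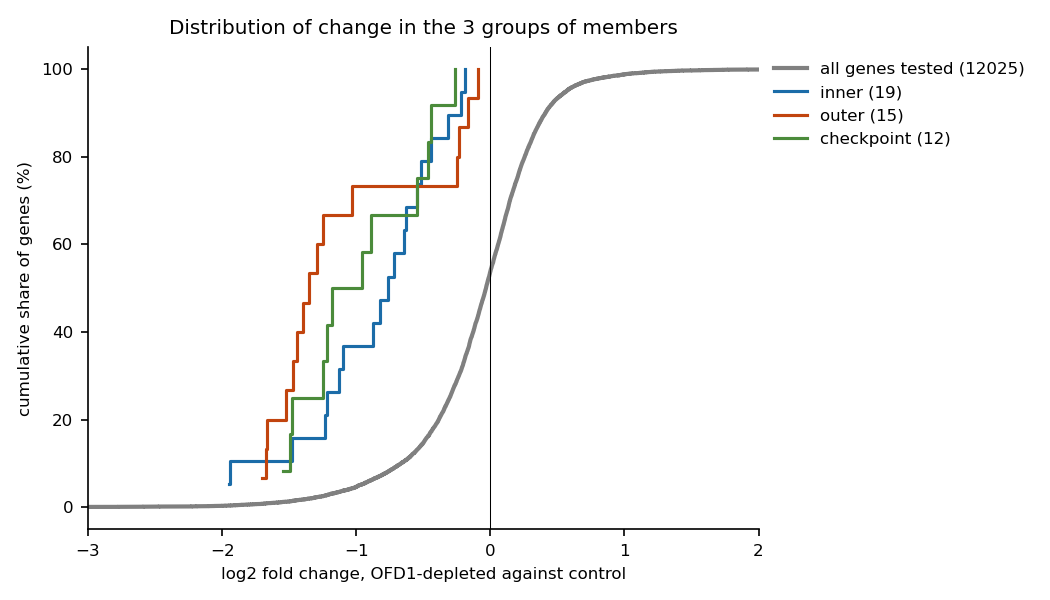
Cumulative share of genes (%) against log2 fold change for the 19 inner, 15 outer and 12 checkpoint genes and for all 12025 genes tested, drawn from -3 to 2. The medians of the 3 member curves (-0.764, -1.353 and -1.069) lie left of that of all genes (-0.032), whose lowest values reach below those of any member, and the outer curve is flat between -1.03 and -0.25.

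The most abundant members in control, per length, were CENPB at 79.5 ± 2.34 FPKM, BUB3 at 78.4 ± 2.06, CENPX at 35.4 ± 1.78, PMF1 at 32.9 ± 4.04 and SPDL1 at 30.8 ± 4.99 (SD, n = 3 each). CENPB and BUB3 differed by less than the SD of either. CENPX, PMF1 and SPDL1 differed from one another by less than the larger SD of each pair. The same 5 were the most abundant in depleted samples. There BUB3 (65.7 ± 6.83 FPKM) came before CENPB (58.8 ± 8.29 FPKM), by less than the larger SD of the pair. The part of these 5 in the summed FPKM of the 46 was 31.6% to 34.9% in control and 43.9% to 49.0% in depleted samples. The order below them shifted. HJURP went from rank 15 to rank 25, while SKA2 went from 14 to 6, MIS12 from 39 to 22, CENPT from 18 to 9 and ZW10 from 29 to 20. CENPP at 1.53 ± 0.102 FPKM, NSL1 at 1.62 ± 0.526, CENPC at 2.81 ± 0.266 and SGO1 at 3.67 ± 0.249 (SD, n = 3 each) were the 4 lowest in control. For levels this low the pseudocount of 0.1 makes the log2 fold change understate the difference.

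The replicates of these genes did not scatter evenly. Control sample 2 held the highest control value in 35 of the 46 genes. OFD1-depleted sample 2 held the lowest depleted value in 24 and the highest in 15. Over the 12000 tested genes with a transcript in GENCODE version 44, the deviation of depleted sample 2 from the mean of the other depleted samples ran against transcript length (Spearman correlation -0.602) and with GC content (0.477). In the 46 members the correlation was -0.518 with length and 0.641 with GC content. Other samples deviated too, each set against the rest of its group over the tested genes. Depleted sample 1 gave 0.514 with length and -0.206 with GC content, and depleted sample 3 gave 0.414 and -0.519. The control samples ran from -0.211 to 0.188 with length and from -0.301 to 0.372 with GC content. These are descriptions across genes, which share their libraries and are not independent replicates. The short transcripts of CENPX (765 bases), CENPM (938) and PMF1 (1068) were high in depleted sample 2, by 1.12, 0.73 and 0.51 on the log2 scale. The long transcripts of CENPE (8541 bases), CENPF (10290) and KNL1 (9266) were low there, with -0.67, -0.65 and -0.60, but NSL1 (13115) and CENPP (8293), also long, were at 0.10 and 0.06. In each of 5 length classes the median of the members lay below that of all genes tested. In genes under 1000 bases the median log2 fold change was -0.643 for 3 members and 0.128 for all genes, from 2000 to 4000 bases it was -1.098 for 21 members and -0.035 for all genes, and from 8000 bases it was -1.473 for 5 members and -0.176 for all genes.

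**Figure D4:**
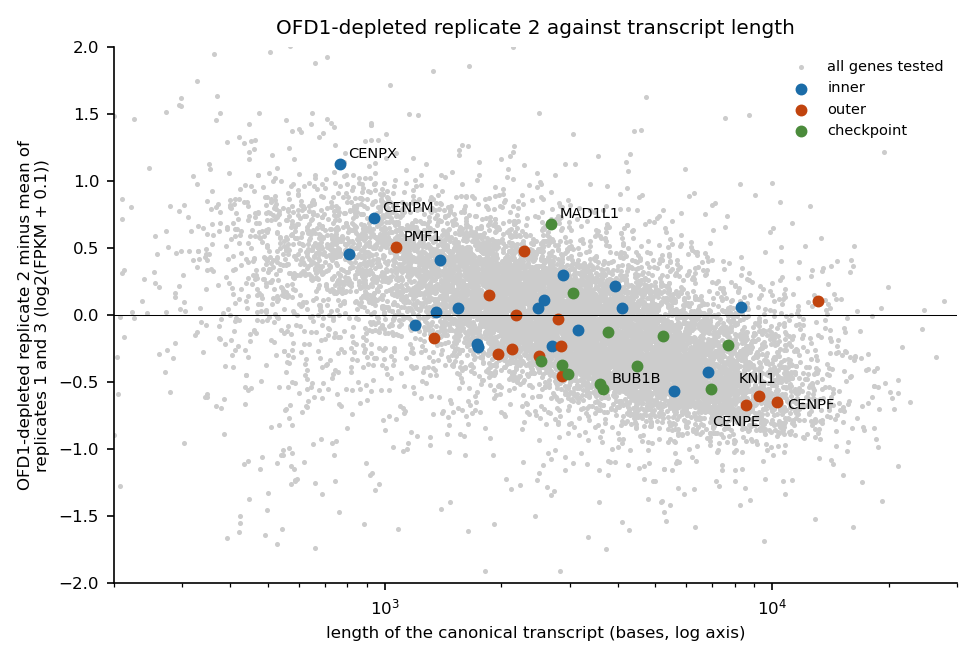
Deviation of OFD1-depleted sample 2 from the mean of depleted samples 1 and 3, in log2(FPKM + 0.1), against the length of the canonical transcript (bases, log axis), with all genes tested in grey, the members coloured by group, and points beyond the axes not drawn. CENPX, CENPM and PMF1, which are short, lie above 0 and CENPE, CENPF and KNL1, which are long, lie below it, while the long NSL1 and CENPP lie just above 0 and the short OIP5 and SPC25 below it.

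Of the 35 genes that fell, 30 stayed past the threshold with each of the 6 samples left out in turn, and 26 in every alternative that tested them. Of the 5 others, CENPB and CENPM passed only when depleted sample 2 was the one left out, with limma adjusted p from 0.00736 to 0.154 for CENPB and from 0.000883 to 0.148 for CENPM over the 6 omissions. SPDL1 passed only without depleted sample 3 (0.0435) and reached 0.117 without control sample 2. CENPH did not pass without control sample 2 (0.1) or 3 (0.0836) or depleted sample 1 (0.0710) or 3 (0.0757), and CENPK without control sample 1 (0.0644) or 2 (0.0611), each a limma adjusted p. None of the 5 changed sign.

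RefSeq promoters of 250 bases before and 50 bases after the start were at hand for 38 of the 46 genes. They are a description of letters near the start sites, not of bound factors. A CHR was found in 20 of the 38 (52.6%), against 15.4% of the 9029 tested genes with a promoter. CCAAT was found in 25 (65.8% against 43.7%) and an E2F motif in 12 (31.6% against 18.6%). By group, the CHR was present in 7 of 15 inner, 7 of 14 outer and 6 of 9 checkpoint genes. It stood in 18 of the 28 genes that fell (64.3%) and in 2 of the 10 that did not pass (20.0%), which were CENPC at -90 and ZW10 at -224. CCAAT was found in 64.3% and 70.0% of them. The median log2 fold change was -1.242 in the 20 genes with a CHR and -0.586 in the 18 without. Within 50 bases of the start site, a window chosen after the positions were seen, 17 of the 28 genes that fell and 0 of the 10 that did not pass held a CHR, beside 4.77% of tested genes. Besides NDC80 and BUB1, these 17 include NUF2, SPC25, BUB1B, CENPA, CENPF, MAD2L1 and ZWINT. Genes that fell without a CHR in the promoter include CENPE, SPC24 and DSN1. CENPI was also without one, but its RefSeq start lies 2854 bases from the GENCODE canonical start. TTK, CENPH, BUB3, CENPM, CENPL, KNTC1, MIS18A and KNL1 had no entry.

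Beyond the 46, 30 further genes that act at the same structures were looked at. The list was written from general knowledge, with earlier results of these data known. Of these 30 genes, 18 fell (60%), none rose and 12 did not pass, where 11.9% of all genes tested fell. Their median log2 fold change was -0.832, beside -0.032 for all genes tested. SPAG5 (astrin), which stabilizes attached kinetochores, read 17.1, 18.9 and 17.4 FPKM in control and 4.64, 4.52 and 5.37 FPKM in depleted samples, without overlap (log2 fold change -1.86, standard error 0.134, limma adjusted p = 1.35e-05). KIF2C, the microtubule depolymerase MCAK, was at -1.38, CKAP5, a microtubule polymerase, at -1.40 and PLK1, the mitotic kinase, at -1.36 (limma adjusted p = 4.35e-05, 4.35e-05 and 4.8e-05). Only MAD2L1BP, which helps to switch the checkpoint off, and BOD1, which regulates PP2A at the kinetochore, had values above 0. MAD2L1BP stood at 0.15 (limma adjusted p = 0.515) and BOD1 at 0.09 (limma adjusted p = 0.670), and both overlapped between groups.

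Some members share exon bases with another gene, and how the reads there were divided is not given in the sources used here, nor is the strand setting of the counting, although the kit named in the methods marks strand. OIP5 shares 63.2% of its exon bases with the antisense RNA OIP5-AS1, which fell as well (log2 fold change -0.59, limma adjusted p = 0.0215), and 29.3% with NUSAP1. CENPO shares 27.0% with ADCY3 on the opposite strand, which was at -0.998 (limma adjusted p = 0.00236). CENPP shares 39.9% with IPPK (-0.13) and CENPU 14.9% with PRIMPOL (-0.31), neither of which passed. On the same strand, MAD1L1 shares 43.2% with AC069288.1 and PMF1 shares 23.3% with the read-through gene PMF1-BGLAP. The values of these genes are uncertain to that extent.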

How the data were processed

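RNA-seq was deposited for 6 samples, 3 control and 3 OFD1-depleted, grouped by the sample labels. The authors aligned 150-base paired-end reads to GRCh38 (Ensembl version 94 in the methods) with HISAT2 (2.0.5 in the processing notes) and summarized them per gene with StringTie (version not given in the sources used here) as FPKM, the unit of the deposited table, so no count test was used. The labels name a TruSeq kit as well as the NEBNext directional kit, and the methods name only the latter for libraries.

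The 12025 genes that averaged 1 FPKM or more were compared on log2(FPKM + 0.1) with limma 3.58.1 (R 4.3.3), with a mean-variance trend and two-sided p-values adjusted by Benjamini-Hochberg over all of them. Fold changes are on that scale and understate those of low genes. Depth is already divided out of FPKM. The 17 alternatives covered the pseudocount, filter, scaling, fit, replicate block and each sample left out. The procedure was tested on simulated data. Values in every sample are given for the 5 smallest p-values per group and for every gene that did not pass; of the partner list, the 4 smallest p-values and the genes with positive values are named. The members and lists were chosen with earlier results of these data known. Transcript lengths came from GENCODE version 44, and motifs were searched in RefSeq promoters with Python 3.11.15.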

Additional observations from a re-analysis of the deposited data

How the results depend on the processing

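The number of members that fell stayed between 26 (no filter) and 39 (array weights) over the 17 alternatives, and none rose in any. Among the values of single members, 724 of 774 kept direction and side of the threshold, 37 no longer passed, 10 newly passed and 3 turned sign. Without a filter, 9 inner genes fell, and 823 genes fell and 260 rose in all. Array weights gave 2263 and 1693, TPM scaling 264 and quantile normalization 1093 genes that rose. The median log2 fold changes of all members, inner, outer and checkpoint genes were -0.884, -0.665, -1.179 and -0.884 with a pseudocount of 1, and -1.219, -0.917, -1.515 and -1.225 with TPM scaling. TPM scaling moved the median of all genes by -0.147, and relative to it the members stood at -1.04. Quantile normalization gave -0.950 for all members, -0.640 for inner and -1.218 for outer genes. Array weights gave -0.963 for all members, -1.290 for outer and -0.886 for checkpoint genes. Median-of-ratios scaling gave -0.712 for inner and -1.302 for outer genes, and a filter at 5 FPKM -0.922 for checkpoint genes. With single samples left out, genes that fell numbered 867 to 1741 and genes that rose 244 to 1077. The medians then ran from -1.128 to -0.911 for all members, from -0.850 to -0.660 for inner and from -1.436 to -1.261 for outer genes. RANBP2 (-0.044) turned to 0.007 with median-of-ratios scaling, 0.079 with quantile normalization and 0.120 with array weights, and MAD2L1BP to -0.001 and BOD1 to -0.055 with TPM scaling. Over the single samples left out, RANBP2 ranged from -0.186 to 0.188, CLASP1 from -0.305 to 0.051, CLIP1 from -0.244 to 0.035, NSL1 from -0.370 to 0.004, CENPX from -0.560 to 0.073 and PMF1 from -0.257 to 0.004. The causes were not tested. With the replicate block, 35 members fell, no member changed its call, and 1534 genes fell and 762 rose. For pairing, the deviations of each gene from its group mean were correlated between control and depleted samples. Samples of the same number gave 0.058, 0.048 and 0.011, and samples of different numbers gave -0.08 to 0.05. All were near 0, so the numbers were not taken as pairs. Depth could be estimated only roughly, and read counts were not analysed here.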
